A study of Mus musculus with 33 samples.

Results

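A set of 10 transcription factor genes that mark the medial ganglionic eminence and the septum was followed in RNA libraries of embryonic mouse ventral forebrain: Nkx2-1, Nkx6-2, Lhx6, Lhx8, Gbx1, Gbx2, Zic1, Zic4, Sall1 and Sall3. They were taken from a list of named factors, not picked by a threshold, and make up 10 of the 14664 gene symbols in the count table. The list was drawn up with earlier results of these data known. All 10 were in the table and all 10 passed the filter on low counts, which left 14510 genes. The libraries came from ganglionic eminences of CD1 embryos at e13.5, with 4 wild-type and 4 Dlx1/2-/- libraries, and the labels name 4 embryos of each genotype, 2 males and 2 females. In the mutants the neighbouring homeobox genes Dlx1 and Dlx2 are both disrupted; how the allele was built is left unsaid in the labels. The lateral, medial and caudal eminences are named together for the chromatin samples of the series, and for the RNA only ganglionic eminences are named, so the medial eminence was not measured alone. The comparison asks how the regional programme of the eminences depends on DLX factors.

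The ganglionic eminences are transient swellings of the ventral forebrain that produce the GABAergic neurons of the basal ganglia and the interneurons of the cortex. The medial eminence is patterned by Sonic hedgehog, which maintains Nkx2-1 in its progenitors; NKX2-1 in turn is known to activate the LIM homeobox genes Lhx6 and Lhx8 in the cells that leave the ventricular zone. Lhx6 is needed for the migration and subtype choice of cortical interneurons, and Lhx8 for the cholinergic neurons of the basal forebrain. Zic genes encode zinc finger factors known for the septum and its progenitors, Gbx genes encode homeodomain factors and Sall genes encode zinc finger factors. Because whole tissue was measured, a lower level can come from fewer cells of a type or from less RNA per cell, and these cannot be told apart here.

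Levels are given as CPM, the counts of a gene scaled to the same library total, with library totals adjusted by the trimmed mean of M-values (TMM). A log2 fold change is knockout over wild type, and each comes from edgeR's quasi-likelihood test over all 14510 genes with Benjamini-Hochberg adjusted p. An adjusted p under 0.05 was the threshold for a call. Levels of different genes were not compared, since transcript lengths were not used. Totals ranged from 14.4M to 117M counts per library. Dlx1 was at 119 to 129 CPM in the wild-type libraries and 21.5 to 26.1 CPM in the knockouts, and Dlx2 at 15.3 to 29.0 CPM and 1.02 to 1.5 CPM. In each genotype 2 libraries had more Xist than Y-linked reads and 2 had fewer, which matches the 2 females and 2 males of the labels.

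Of the 10 factors, 3 passed the test. Lhx8 and Lhx6 fell and Sall3 rose, while Nkx2-1, the gene upstream of both LIM genes, did not pass. Over all genes, 0.896% of those tested passed as lower and 0.586% as higher in the knockout, and for 5.98% of genes the highest library of 1 genotype lay below the lowest of the other. The same held for 5 of the 10 factors (Lhx6, Lhx8, Gbx2, Zic4 and Sall3). The factors were chosen with earlier results of these data known, so these shares cannot test whether the set differs from other genes. The median log2 fold change over all genes was -0.00267.

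**Figure D1:**
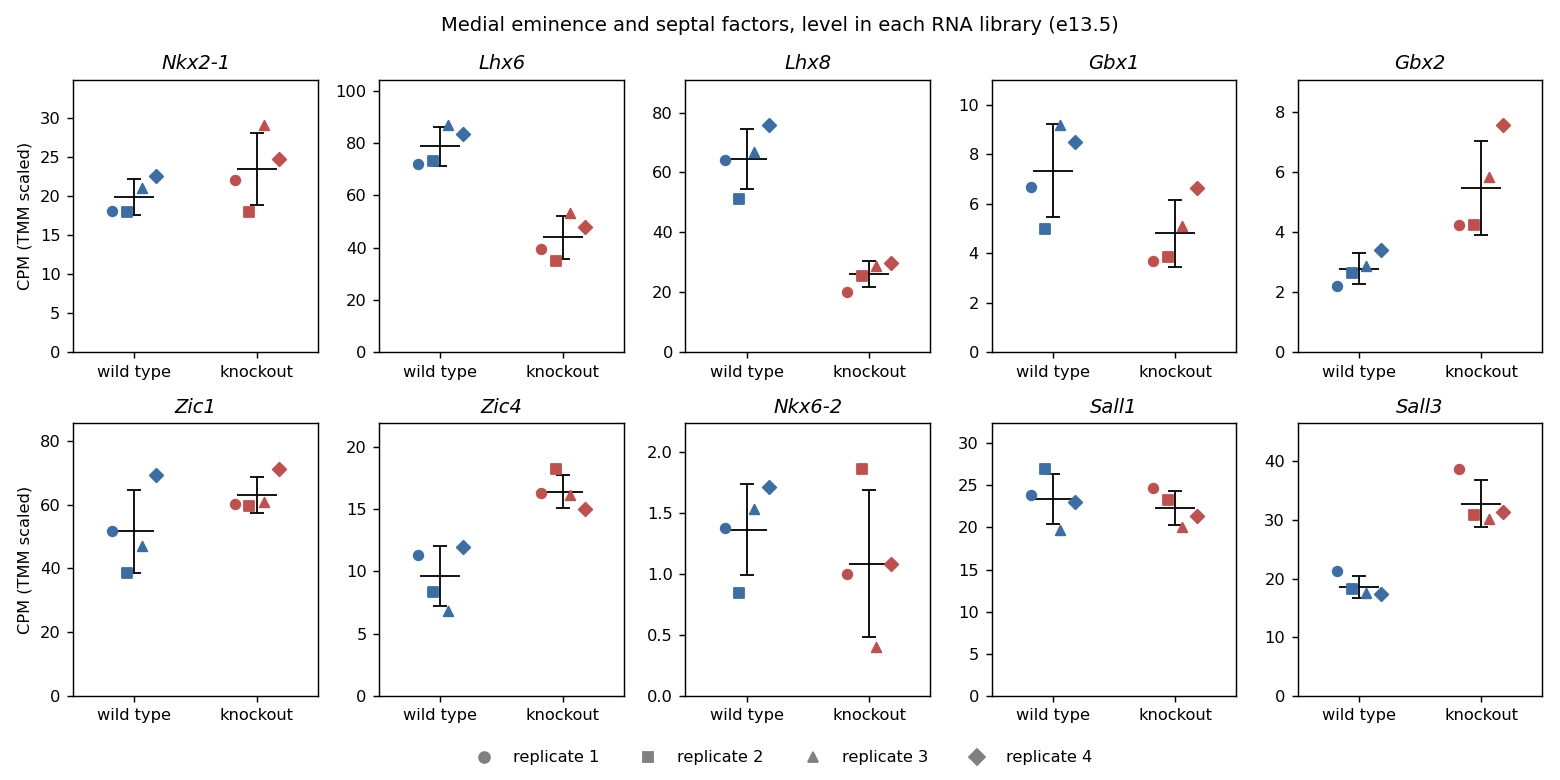
Level of each of the 10 factors in every library (y axis, TMM-scaled CPM, from 0; marker shape is the replicate number; the horizontal bar is the mean and the whiskers 1 SD, n = 4 per genotype). Lhx6 and Lhx8 lie lower and Sall3 higher in every knockout library, and Nkx2-1, Nkx6-2, Gbx1, Zic1 and Sall1 overlap between the genotypes.

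Nkx2-1 encodes the homeodomain factor that defines the medial eminence. It was at 18.04, 17.9, 21.0 and 22.6 CPM in wild-type replicates 1 to 4 and at 21.98, 18.002, 29.0 and 24.7 CPM in the knockouts. The genotypes overlapped, and the means were 19.9 ± 2.29 and 23.4 ± 4.64 CPM (SD, n = 4 each). The log2 fold change was 0.23 (SE 0.15, 95% interval -0.10 to 0.56, edgeR adjusted p = 1.0), an interval that holds no fall beyond -0.10. Nkx6-2, a homeobox gene of progenitors at the dorsal edge of the medial eminence, had few reads: 0.841 to 1.71 CPM in the wild types and 0.401 to 1.86 CPM in the knockouts, from 17 to 157 and 6 to 89 counts. Its log2 fold change was -0.24 (SE 0.36, 95% interval -1.04 to 0.56, edgeR adjusted p = 1.0), so a log2 fold change anywhere from -1.04 to 0.56 could not be told from none at this depth. The Nkx6-2 gene model overlaps that of Inpp5a, and no source used here says whether counting used strand.

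Lhx8 fell most of the 10. It was at 64.1, 51.3, 66.9 and 75.7 CPM in the wild types and at 20.1, 25.4, 28.8 and 29.9 CPM in the knockouts, which did not overlap. The means were 64.5 ± 10.1 and 26.05 ± 4.40 CPM (SD, n = 4 each), 2.48-fold lower in the knockout (log2 fold change -1.31, SE 0.16, 95% interval -1.66 to -0.97, edgeR adjusted p = 0.00179). Lhx6 was at 71.9, 73.2, 86.8 and 83.7 CPM in the wild types and at 39.5, 35.1, 53.3 and 47.8 CPM in the knockouts. The means of 78.9 ± 7.46 and 43.9 ± 8.17 CPM (SD, n = 4 each) give a 1.80-fold lower level (log2 fold change -0.85, SE 0.14, 95% interval -1.16 to -0.54, edgeR adjusted p = 0.0131). Without wild-type replicate 3 the edgeR adjusted p of Lhx6 was 0.0514, and without knockout replicate 1 it was 0.0543, in each case at a log2 fold change of -0.80. Neither gene overlapped between the genotypes, so every knockout library was below every wild-type library. Between libraries of the same number the fall was 1.02 to 1.67 log2 units for Lhx8 and 0.70 to 1.06 log2 units for Lhx6. A shared number is not said to mark a pair, and another pairing would give other ranges.

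The 250 bases before the RefSeq starts of Lhx6 and Lhx8, the factors that fell, are shown. Those of Gbx2 and Zic4, which did not pass the test and are described further on, are shown too. DLX proteins are homeodomain factors that bind TAATT-type motifs. Capitals mark TAATT or its reverse complement AATTA, searched on both strands (the run TAATTA holds both); coordinates are of GRCm38.p6, and each sequence runs 5′ to 3′ on the strand of the gene, ending at the base before its start. The windows are chr2:36104061-36104310 for the Lhx6 start shown (minus strand), chr3:154330561-154330810 for Lhx8 (minus strand), chr1:89931177-89931426 for Gbx2 (minus strand) and chr9:91368722-91368971 for Zic4 (plus strand).
Lhx6: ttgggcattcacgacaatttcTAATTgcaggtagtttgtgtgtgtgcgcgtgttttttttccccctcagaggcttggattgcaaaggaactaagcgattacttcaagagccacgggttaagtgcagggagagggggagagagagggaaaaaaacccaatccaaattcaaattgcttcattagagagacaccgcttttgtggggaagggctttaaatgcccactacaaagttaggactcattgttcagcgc
Lhx8: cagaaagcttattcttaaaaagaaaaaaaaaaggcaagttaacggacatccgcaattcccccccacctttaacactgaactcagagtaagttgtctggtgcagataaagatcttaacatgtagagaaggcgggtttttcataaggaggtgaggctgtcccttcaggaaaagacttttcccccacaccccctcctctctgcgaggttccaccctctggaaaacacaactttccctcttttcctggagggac
Gbx2: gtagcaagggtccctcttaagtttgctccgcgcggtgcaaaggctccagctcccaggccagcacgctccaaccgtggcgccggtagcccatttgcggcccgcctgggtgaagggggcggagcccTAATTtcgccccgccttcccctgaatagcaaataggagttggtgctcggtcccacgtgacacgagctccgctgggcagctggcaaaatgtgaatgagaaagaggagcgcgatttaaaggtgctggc
Zic4: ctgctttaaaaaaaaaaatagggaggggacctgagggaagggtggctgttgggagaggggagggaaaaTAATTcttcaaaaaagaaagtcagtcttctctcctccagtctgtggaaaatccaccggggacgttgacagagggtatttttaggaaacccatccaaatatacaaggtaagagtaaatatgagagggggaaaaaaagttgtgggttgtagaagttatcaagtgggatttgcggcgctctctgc
The motif lay 229 bases before the Lhx6 start, 126 before the Gbx2 start and 182 before the Zic4 start, and was not in the Lhx8 window. Of all windows of this length in the RefSeq promoter set, 8223 of 32851 held it (25.0%), and of the 12 windows searched for 8 of the factors 5 did (41.7%). Lhx6 and Sall1 have 3 windows each: 1 of the Lhx6 windows held it, the one shown, and 2 of those of Sall1, a factor that did not pass the test. The windows of Nkx2-1, Zic1 and Nkx6-2, not shown, did not hold it. Windows of Gbx1 and Sall3 were not searched. A match is only a stretch of letters, and its absence says nothing about binding outside these 250 bases.

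Gbx2 and Gbx1 are homeobox genes expressed in parts of the ventral telencephalon that are known to produce cholinergic neurons. Gbx2 was at 2.20, 2.62, 2.89 and 3.42 CPM in the wild types and at 4.25, 4.24, 5.82 and 7.54 CPM in the knockouts. The groups did not overlap, with means of 2.78 ± 0.511 and 5.46 ± 1.57 CPM (SD, n = 4 each), but the log2 fold change of 0.98 (SE 0.23, 95% interval 0.48 to 1.48) did not pass (edgeR adjusted p = 0.0748). Gbx1 was at 6.69, 5.00, 9.17 and 8.50 CPM in the wild types and at 3.68, 3.85, 5.08 and 6.62 CPM in the knockouts. Its log2 fold change was -0.63 (SE 0.24, 95% interval -1.15 to -0.10, edgeR adjusted p = 0.447), and the genotypes overlapped. With the replicate number as a block, which pairs wild-type and knockout libraries of the same number, Gbx2 passed at a log2 fold change of 0.95 (edgeR adjusted p = 0.00357) and Gbx1 at -0.62 (edgeR adjusted p = 0.034). In that fit 2.22% of all genes passed as higher and 2.16% as lower. DESeq2 gave Gbx2 a log2 fold change of 0.98 (adjusted p = 0.00291), where 1.57% of genes passed as higher and 1.64% as lower. Gbx1 was lower in 4 of 4 same-numbered pairs, though the labels do not say that a number marks a pair. By Xist and Y-linked reads, numbers 1 and 2 each set a female library against a male one. Gbx2 was higher in 4 of 4, which any pairing gives where the genotypes do not overlap.

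Zic4 and Zic1 are zinc finger genes expressed in the septum and its progenitors. Zic4 was at 11.3, 8.36, 6.83 and 11.96 CPM in the wild types and at 16.3, 18.2, 16.1 and 15.0 CPM in the knockouts. The genotypes did not overlap, with means of 9.62 ± 2.43 and 16.4 ± 1.34 CPM (SD, n = 4 each), and the log2 fold change was 0.76 (SE 0.17, 95% interval 0.38 to 1.14, edgeR adjusted p = 0.0676). It passed with the replicate block (0.78, edgeR adjusted p = 0.0158) and in DESeq2 (0.77, adjusted p = 0.00148). Zic1 was at 51.7, 38.6, 47.0 and 69.5 CPM in the wild types and at 60.2, 59.5, 61.0 and 71.3 CPM in the knockouts, with a log2 fold change of 0.28 (SE 0.16, 95% interval -0.08 to 0.65, edgeR adjusted p = 0.931). Zic1 and Zic4 gene models overlap each other. Where counting does not use strand, reads in the shared stretch cannot be assigned to either gene.

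Sall3 rose and Sall1 did not pass. Both encode zinc finger factors of the spalt family. Sall3 was at 21.3, 18.2, 17.5 and 17.4 CPM in the wild types and at 38.7, 30.9, 30.1 and 31.3 CPM in the knockouts, and the genotypes did not overlap. The means of 18.6 ± 1.86 and 32.7 ± 4.02 CPM (SD, n = 4 each) give a 1.76-fold higher level (log2 fold change 0.81, SE 0.11, 95% interval 0.56 to 1.07, edgeR adjusted p = 0.00479). Between libraries of the same number the rise ran from 0.77 to 0.86 log2 units. The labels do not say that a number marks a pair, and another pairing of these libraries would give another range. Sall1 was at 23.8, 27.0, 19.7 and 23.0 CPM in the wild types and at 24.7, 23.2, 19.995 and 21.4 CPM in the knockouts, a log2 fold change of -0.06 (SE 0.11, 95% interval -0.32 to 0.19, edgeR adjusted p = 1.0).

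**Figure D2:**
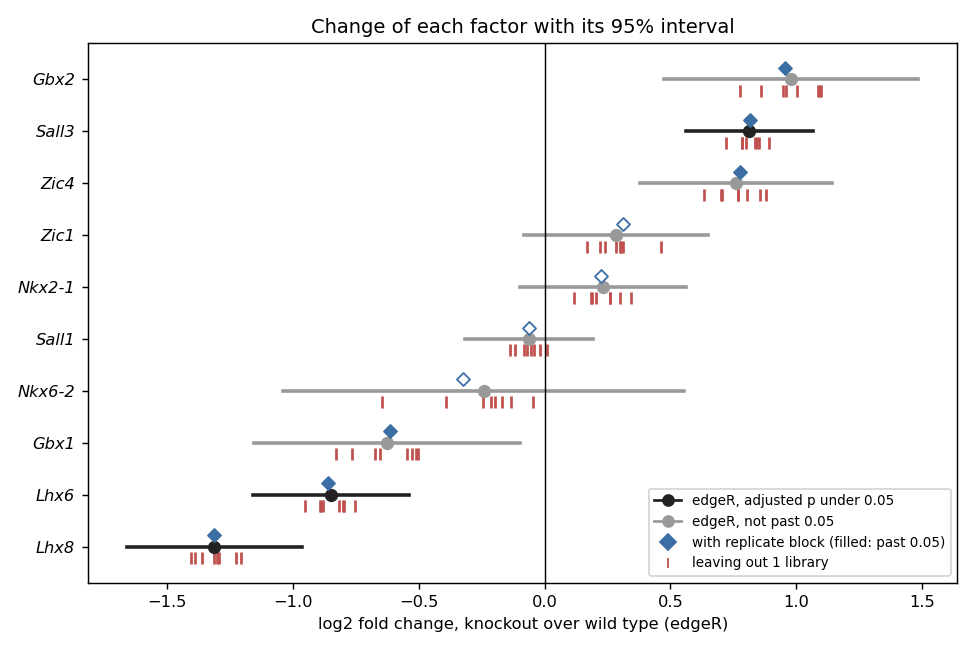
Log2 fold change, knockout over wild type, of the 10 factors (x axis, log2 units; circles are the edgeR estimates, black where the adjusted p was under 0.05, bars the 95% intervals, diamonds the fit with the replicate block, and red ticks the estimates without 1 library). The intervals of Lhx6, Lhx8, Gbx1, Gbx2, Zic4 and Sall3 lie on 1 side of 0, and Lhx8 (-1.31), Lhx6 (-0.85) and Sall3 (0.81) passed the adjusted p threshold.

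Ratios between related factors within a library do not depend on the scaling between libraries, and they were read only for how they differ between genotypes. Lhx6 reads per Nkx2-1 read were 3.70 to 4.14 in the wild types and 1.80 to 1.95 in the knockouts. The ratio of Lhx8 to Nkx2-1 reads was 2.86 to 3.55 in the wild types and 0.916 to 1.41 in the knockouts. These ranges did not overlap, so both LIM genes were lower relative to Nkx2-1 in every knockout library. The Lhx6 to Lhx8 ratio was 1.11 to 1.43 and 1.39 to 1.96, which overlapped. The Gbx1 to Gbx2 ratio was 1.91 to 3.18 in the wild types and 0.866 to 0.906 in the knockouts, with no overlap. The Sall1 to Sall3 ratio was 1.12 to 1.49 in the wild types and 0.637 to 0.752 in the knockouts, also without overlap, while the ranges of Zic1 to Zic4 (4.56 to 6.88 and 3.26 to 4.75) overlapped. No test was run on these ratios. They come from the same counts as the levels above and are not separate support for them.

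**Figure D3:**
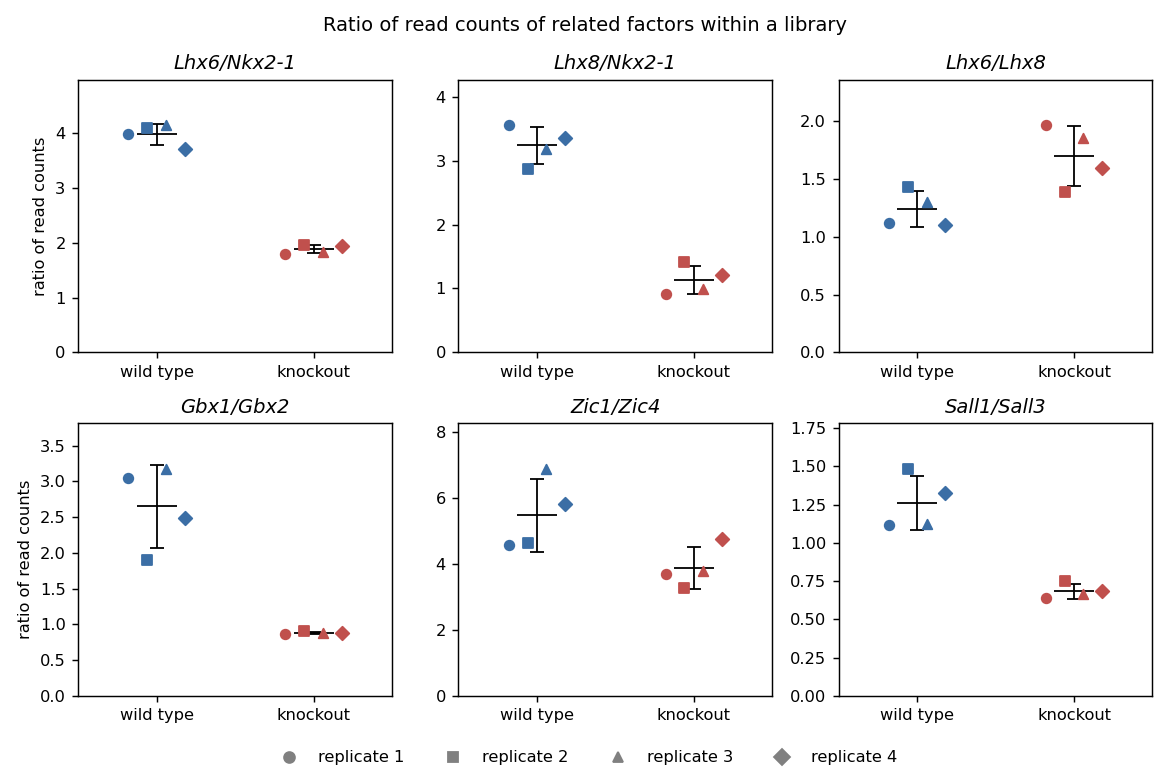
Ratio of the read counts of 6 pairs of factors in each library (y axis, ratio, from 0; marker shape is the replicate number; the horizontal bar is the mean and the whiskers 1 SD, n = 4 per genotype). The Gbx1 to Gbx2 ratio of the knockouts is near 1 in all 4 libraries (0.866 to 0.906), below the wild-type range of 1.91 to 3.18.

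The levels varied among libraries along the replicate numbers as well. In both genotypes the libraries numbered 3 and 4 were above those numbered 1 and 2 for 5 of the 10 factors (Nkx2-1, Lhx6, Lhx8, Gbx1 and Gbx2), where 23.0% of all genes did the same, and they were below for Sall1, where 24.5% of all genes did. The labels do not say what a number marks. Within numbers 1 and 2 alone the log2 fold changes of Lhx6, Lhx8 and Sall3 were -0.96, -1.35 and 0.81, and within numbers 3 and 4 alone they were -0.75, -1.28 and 0.82, each past the edgeR threshold. Gbx2 was at 0.85 and 1.10 in the same order (edgeR adjusted p = 0.0654 and 0.0574), and Zic4 at 0.78 and 0.73 (0.0219 and 0.261). In the authors' deposited table, which used a likelihood ratio test, Lhx8 (adjusted p = 4.53e-12), Sall3 (3.51e-05), Lhx6 (4.49e-05), Zic4 (0.000756) and Gbx2 (0.00499) passed 0.05, and Gbx1 (0.252) did not. Of the 14664 symbols in that table, 147 passed as higher and 181 as lower, more than in the test reported here.

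Genes whose level over the 8 libraries was most like a factor were named by Pearson r of log2 CPM, as a description with no p, since 8 libraries share the 2 genotypes. Lhx6 was most like Pde3a (r = 0.989), Hs6st2 and Tgfb3. Lhx8 was most like Slc6a8 (r = 0.989), Th and Dlx2. Sall3 was most like Pgpep1 (r = 0.993), Otx2 and Lrig1. Nkx2-1 was most like Lphn2 (0.989), Gbx1 like Slain1 (0.967), Gbx2 like Ulk4 (0.984), Zic1 like C1qa (0.980), Zic4 like D930028M14Rik (0.958), Nkx6-2 like Ict1 (0.967) and Sall1 like Plekhb1 (0.979). With values centred within each genotype, Lhx6 and Pde3a kept an r of 0.987, Lhx8 and Slc6a8 gave 0.877, and Sall3 gave 0.939 with Pgpep1 and 0.779 with Otx2.

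Upstream patterning genes of the medial eminence and septum numbered 15 tested, of which 1 rose and none fell, with a median log2 fold change of 0.114. With the replicate block 3 rose, and in DESeq2 2 did. Shh, the ligand that maintains Nkx2-1, was at 6.14 ± 1.37 CPM in the wild types and 4.72 ± 1.54 CPM in the knockouts (SD, n = 4 each; log2 fold change -0.41, edgeR adjusted p = 0.979). Gli1, a readout of hedgehog signalling, gave -0.50 (edgeR adjusted p = 0.838). Otx2, a homeobox gene of the forebrain, rose 2.30-fold, from 10.1 ± 0.707 to 23.2 ± 3.77 CPM (SD, n = 4 each; edgeR adjusted p = 0.0008).

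Of 23 tested partner and lineage genes of medial eminence interneurons none rose and 7 fell, with a median log2 fold change of -0.449. Among them were Nxph2, a neurexophilin (-4.46), Sp8, a zinc finger gene (-2.40), Erbb4, the neuregulin receptor (-1.71), Maf (-1.59), Ackr3, a chemokine receptor (-0.76), and Zeb2 (-0.49), with edgeR adjusted p of 0.02 at most. With the replicate block 14 of the 23 passed as lower and 1 as higher, Nrp1, a semaphorin receptor (0.37, edgeR adjusted p = 0.0107), and DESeq2 called 11 lower and none higher. The call of Zeb2 was kept in 2 of 8 fits that left out 1 library, without wild-type replicate 2 or knockout replicate 1 (edgeR adjusted p up to 0.0853 in the others). Nxph2 went from 12.7 ± 2.86 to 0.578 ± 0.188 CPM (SD, n = 4 each). Sst, the neuropeptide of a main interneuron class, was at 19.8 ± 6.90 and 13.9 ± 2.00 CPM (SD, n = 4 each; log2 fold change -0.50, edgeR adjusted p = 0.642). None of 7 genes of the cholinergic lineage passed in edgeR without the replicate block. Isl1, a LIM homeobox gene shared with the striatum, was at 105 ± 8.84 and 144 ± 19.0 CPM (SD, n = 4 each; 0.45, edgeR adjusted p = 0.0944). With the block it passed (0.45, edgeR adjusted p = 0.0111), as it did in DESeq2 (adjusted p = 0.0101); these 2 fits called no other gene of this list higher. Chat, the enzyme that makes acetylcholine, was under 1 CPM in both genotypes.

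Of 23 other genes of these families 12 were tested, and 1 rose: Lhx9, a LIM homeobox gene of the thalamus and pallium, from 22.1 ± 1.85 to 34.2 ± 1.76 CPM (SD, n = 4 each; log2 fold change 0.63, edgeR adjusted p = 0.00605). The 12 had a median log2 fold change of 0.104, and 4 passed as higher with the replicate block and 3 in DESeq2.

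Markers of neighbouring territories and other cell types were read in the same fit. Of 17 lateral eminence genes 6 fell and none rose (median -0.397), among them Sp8, Zfp503 (-1.67), Rarb (-1.66) and Ebf1 (-1.35). With the replicate block 10 fell and 1 rose, and in DESeq2 7 fell and 1 rose. Among 14 pallial genes none passed (median 0.0863), and their summed level was 633 to 758 CPM in the wild types and 672 to 840 CPM in the knockouts. Of 8 tested genes of the hypothalamus, thalamus and prethalamus, 3 rose: Otp (3.57), Hmx2 (2.72) and Lhx9. DESeq2 called 4 genes of the list higher, not all of them among these 8. The call of Hmx2, at 0.194 ± 0.208 and 1.26 ± 0.453 CPM (SD, n = 4 each), was kept in 2 of 8 fits that left out 1 library, without wild-type replicate 4 or knockout replicate 2 (edgeR adjusted p up to 0.171 in the others). The summed level of the list was 37.95 to 51.35 CPM in the wild types and 60.0 to 69.55 CPM in the knockouts. Lhx9, a gene of the pallium too, was the largest part of this sum (means 22.1 and 34.2 CPM). Sim1 (11.2 and 12.6 CPM) and Barhl2 (7.14 and 8.20 CPM) did not pass, so the sum is no measure of these regions as a whole. Among 10 mesenchyme and meningeal genes 1 rose, and it was Pdgfra, a receptor of oligodendrocyte precursors too (1.53, edgeR adjusted p = 0.00335); the summed level was 48.4 to 60.0 CPM and 74.1 to 106.5 CPM. Without Pdgfra the other 9 genes summed to 30.7 to 44.9 CPM in the wild types and 29.6 to 51.3 CPM in the knockouts, which overlapped. The part of these tissues in the changes of the 10 factors was not tested. Of 6 oligodendrocyte precursor genes Pdgfra and Gpr17 (1.10) rose. With the replicate block 3 of them passed as higher, Olig2 being the one added (0.51, edgeR adjusted p = 0.00182, against 0.429 without the block). The call of Gpr17 ended without wild-type replicate 1, 2 or 3 and without knockout replicate 1 or 4 (edgeR adjusted p up to 0.0717), and that of Pdgfra was kept in 8 of 8 such fits. Of 7 caudal eminence genes 1 rose, Prox1 (0.84), and 2 fell, Htr3a (-1.43) and Scgn (-1.17). The call of Prox1 ended without any 1 wild-type library and without knockout replicate 1 (edgeR adjusted p up to 0.085); with the block and in DESeq2 2 genes of this list passed as higher. Choroid plexus and hem, endothelial and pericyte, erythroid and microglial lists held 4, 10, 7 and 10 tested genes, and none of these passed in edgeR. The choroid plexus and hem genes had a median of -0.377. They summed to 15.4 to 21.7 CPM in the wild types and 12.8 to 14.0 CPM in the knockouts, without overlap. Most of this sum was Rspo3 (means 15.9 and 11.9 CPM). DESeq2 called 1 gene of that list lower, not among these 4.

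**Figure D4:**
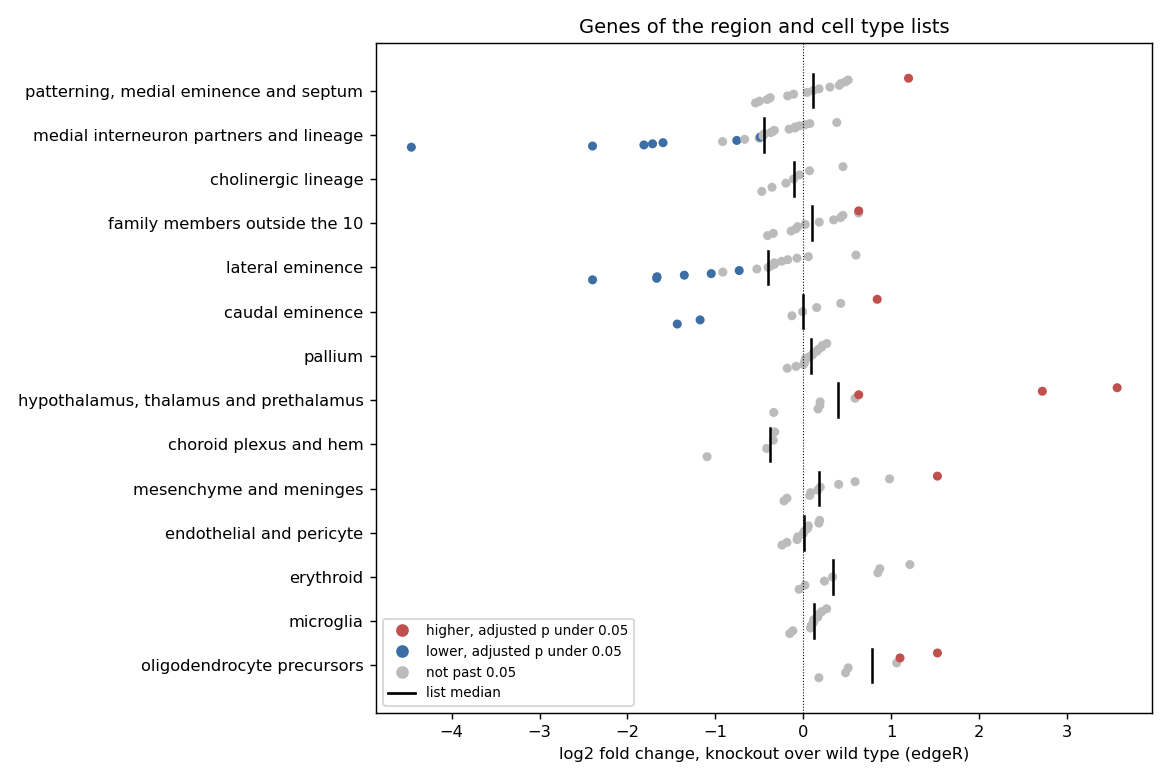
Log2 fold change of every tested gene in 14 lists of neighbouring genes, regions and cell types (x axis, log2 units; 1 point per gene, coloured where the edgeR adjusted p was under 0.05; the short black line is the list median). The lineage list has 7 genes that fell and none that rose, and its median is -0.449; the pallium list has no coloured point.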

How the data were processed

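RNA was measured in 8 libraries, 4 wild-type and 4 Dlx1/2-/- (e13.5 ganglionic eminences), each with 1 replicate number in the labels. The labels name a ribosomal RNA depletion kit and single-end reads, and also poly(A) RNA as the molecule; which was used is not settled here. Per the submitters' processing notes, reads were demultiplexed with bcl2fastq and aligned with STAR 2.4.2a to mm9; for the counting tool, annotation and strand setting nothing is stated in the sources used. The authors deposited raw counts per gene symbol with their own log2 fold change, log2 mean CPM, likelihood ratio score and p-value with its adjusted form, which were read only as the authors' deposited table. Peak and region files of the series were not used here.

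From the counts, edgeR 4.0.16 (R 4.3.3) used filterByExpr (minimum count 10) and TMM scaling, with genotype as the only term and Benjamini-Hochberg adjustment over all 14510 genes; SE was taken from the fold change and its F statistic and the 95% interval from the fit's degrees of freedom. Library totals of 14.4M to 117M counts limit the precision of genes near 1 CPM. Alternatives were library totals or RLE scaling, no filter, DESeq2 1.42.0, the replicate number as a block, each library left out, and replicates 1 and 2 or 3 and 4 alone. On simulated data the fit recovered 32.8% of genes changed 1.5-fold, 82.1% at 2-fold and 93.9% at 4-fold, among 14429 genes, with 10 false calls. The simulated libraries were drawn independently, without the shared variation along replicate numbers seen in the data. Recovery and false calls in the real libraries can therefore differ from these. Same-numbered libraries correlated in their deviations from the genotype means over 13370 genes (r = 0.158, 0.337, 0.483 and 0.566 for numbers 1 to 4), so the fit with the block is given beside the results whose call it changes, while the calls reported have no block; wild-type replicate 1 correlated more with knockout replicate 2 (0.684), and wild-type replicate 2 with knockout replicate 1 (0.485). By Xist and Y-linked reads, same-numbered libraries differed in sex for numbers 1 and 2 and matched for numbers 3 and 4. The crossed pairs just named matched in sex. The labels name separate embryos but not their litters. The members and lists were chosen with earlier results of these data known. Named genes were the 10 factors, the targeted genes, the 3 genes most like each factor, and from each list up to 5 genes that passed plus the first that define it. Of the 7 lineage genes that fell, Ackr3 and Zeb2 lie outside that rule and were named after their values were seen, as were Sst and Nrp1. The values of 1 gene of that list are not reported here. The promoter letters were read from a RefSeq table of GRCm38.p6, which is not the authors' build, and no position was moved between builds.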

Additional observations from a re-analysis of the deposited data

Results flagged for a closer look

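Of the 20 groups of 4 libraries checked for a library far from the rest of its group, 2 had one, and chance alone flags about 1 in 20. Sall3 in knockout replicate 1 was at 38.7 CPM, and the other 3 knockouts were at 30.1 to 31.3 CPM. Without that library Sall3 still passed at a log2 fold change of 0.72 (edgeR adjusted p = 0.0139). Zic1 in knockout replicate 4 was at 71.3 CPM, and the other 3 were at 59.5 to 61.0 CPM.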

How the results depend on the processing

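The directions of Lhx6, Lhx8 and Sall3 held under every alternative run, and Lhx8 and Sall3 kept their calls when any 1 library was left out. Leaving out 1 library gave Lhx6 log2 fold changes of -0.95 to -0.75, Zic4 0.63 to 0.88, and Sall1 -0.14 to 0.0097 (positive without wild-type replicate 2); the call of Lhx6 ended when either wild-type replicate 3 was left out or knockout replicate 1 was, and Zic4 passed without wild-type replicate 4 (edgeR adjusted p = 0.0429). With replicates 1 and 2 alone Nkx6-2 reversed to 0.28, and Zic4 passed at 0.78. DESeq2 passed Gbx2 (0.98) and Zic4 (0.77), and the replicate block passed Gbx1 (-0.62), Gbx2 (0.95) and Zic4 (0.78); the block changed no other call among the 10 factors. Genes called higher and lower numbered 85 and 130 in the test reported; they were 230 and 241 in DESeq2, 322 and 313 with the replicate block, and 178 and 202 with replicates 1 and 2 alone. Leaving out 1 library gave 50 to 66 genes called higher and 92 to 121 lower; the number called higher fell by more than 1.5 times without wild-type replicate 1, 2 or 3 or knockout replicate 1 or 4. Genes of the lists called higher numbered 7, against 13 in DESeq2, 15 with the block and 4 with replicates 3 and 4 alone, with 4 to 7 when 1 library was left out; those called lower numbered 14, and 24 with the block. The cause of each was not tested. Depth limits Nkx6-2, at 6 to 157 counts per library.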
